A study of Mus musculus with 18 samples.

Results

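The 10 genes described here code for the core proteins with which a heart muscle cell releases calcium and takes it back: Cacna1c, Ryr2, Casq2, Trdn, Asph, Jph2, Hrc, Atp2a2, Pln and Slc8a1. The list is one of gene names picked for these roles, by a rule that uses no measured value. Earlier results of these data were known when it was chosen. All 10 of 10 were among the 12048 genes with a value in the deposited tables. Ventricular cardiomyocytes of Mlc2vcre:R26REYFP mice had been sorted by FACS according to their number of nuclei, and poly(A) RNA was sequenced from 18 libraries. The 6 groups, with 3 libraries each, were mononucleated (1N) and binucleated (2N) cells of fetal hearts at E18.5 (a late embryonic day), of hearts at P7 (postnatal day 7) and of adult hearts, whose exact age the labels do not give. All groups carried the same alleles: Cre recombinase under the promoter of Mlc2v (Myl2, a regulatory light chain of ventricular myosin) and a Cre-dependent yellow fluorescent protein at the Rosa26 locus, so the cells are those in which that promoter had been active. There was no treatment. The design asks how transcripts differ between the nuclear classes at each age and how they change with age within a class. The labels do not say that the replicates came from separate animals, so each p-value measures the spread between these libraries, which may be technical.

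In the heart, an action potential opens L-type calcium channels in the surface membrane, and the calcium that enters opens ryanodine receptors in the facing membrane of the sarcoplasmic reticulum, the internal calcium store. The released calcium starts contraction. Relaxation follows when the pump SERCA2 returns calcium to the store, under restraint by phospholamban, and when the sodium-calcium exchanger moves calcium out across the surface membrane. Fetal cardiomyocytes have few T-tubules, the surface invaginations that later bring the channels close to the store, and they are known to rely more on calcium entry across the surface membrane than adult cells do.

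Promoter sequences were looked up in the RefSeq table for GRCm38.p6, and 7 of the 10 genes had an entry. Each sequence runs 5′ to 3′ from 250 bases before the annotated start to 50 bases after it. The 4 shown are those of Hrc, which rose most with age, Pln, Casq2, which rose least, and Slc8a1, the member that fell. Capitals mark matches to 4 short motifs searched on both strands: CTAAAAA, the core of the site bound by MEF2 factors; CAGCTG, an E-box sequence; GATAAG, recognised by GATA factors; and TATAAA, found in TATA boxes. None of the matches shown overlap each other.
Hrc, chr7:45335019-45335318, + strand: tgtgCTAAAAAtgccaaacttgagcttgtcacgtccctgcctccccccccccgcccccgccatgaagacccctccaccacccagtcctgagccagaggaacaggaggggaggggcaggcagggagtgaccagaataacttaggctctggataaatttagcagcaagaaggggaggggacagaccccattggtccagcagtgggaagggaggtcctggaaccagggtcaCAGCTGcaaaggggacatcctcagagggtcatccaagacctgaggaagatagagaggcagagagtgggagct
Pln, chr10:53337436-53337735, + strand: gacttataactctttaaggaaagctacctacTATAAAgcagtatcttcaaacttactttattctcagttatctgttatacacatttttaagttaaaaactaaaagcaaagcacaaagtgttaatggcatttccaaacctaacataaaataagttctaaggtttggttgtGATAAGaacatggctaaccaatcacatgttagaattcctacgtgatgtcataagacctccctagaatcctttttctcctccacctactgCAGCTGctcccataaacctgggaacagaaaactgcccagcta
Casq2, chr3:102086165-102086464, + strand: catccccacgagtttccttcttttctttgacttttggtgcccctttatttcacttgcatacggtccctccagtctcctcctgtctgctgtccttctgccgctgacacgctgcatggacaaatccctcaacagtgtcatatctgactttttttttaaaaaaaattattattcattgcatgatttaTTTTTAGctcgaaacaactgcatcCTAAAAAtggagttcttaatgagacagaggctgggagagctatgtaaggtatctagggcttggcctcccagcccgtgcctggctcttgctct
Slc8a1, chr17:81738338-81738637, − strand: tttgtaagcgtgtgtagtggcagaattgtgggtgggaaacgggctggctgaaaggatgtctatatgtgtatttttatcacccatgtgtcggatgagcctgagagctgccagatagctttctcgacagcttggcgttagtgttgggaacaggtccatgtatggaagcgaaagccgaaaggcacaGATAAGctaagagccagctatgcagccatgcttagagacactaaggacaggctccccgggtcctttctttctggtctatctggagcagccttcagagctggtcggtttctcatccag

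The Hrc promoter held CTAAAAA and CAGCTG, and the Casq2 promoter held the MEF2 core once on each strand (TTTTTAG is its reverse complement). Across the 32851 promoters of the table, 3.5% held CTAAAAA, 16.3% CAGCTG, 7.44% GATAAG and 13.6% TATAAA. Pln held 3 of the motifs, all except the MEF2 core, and Slc8a1 held only the GATA-factor motif. CAGCTG was also present at Jph2 and at 1 of the 3 annotated starts of Cacna1c, while the Ryr2 window held none of the 4 motifs. A match describes the letters in this window and is not a measured binding site. Which of several starts these cells use was not measured.

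Depth ran from 14833334 to 22690952 whole counts per library, and every member had at least 691 counts in every library. The shallowest library was binucleated replicate 1 at E18.5, and the other 5 of that age held 19951367 to 22690952. Levels below are normalised CPM (counts per megaread of effective library size), recovered from the deposited log2 values with each library's own scaling factor. All 10 cardiomyocyte markers were measured. Their summed level was 34370.3 to 40540.8 normalised CPM at E18.5, 45327 to 60540.3 at P7 and 59464 to 63266 in the adult. One library stood apart: binucleated replicate 1 at E18.5 deviated from its group by 1.22 log2 units (SD across genes), where the remaining 5 fetal libraries deviated by 0.69 to 0.84. For 9 of the 10 members it lay outside the range of those 5 libraries, as it did for 74.5% of all genes. The E18.5 binucleated libraries also held more fibroblast, endothelial, leukocyte and erythroid marker transcripts than the mononucleated ones. Their 7 measured fibroblast markers summed to 301.2 to 869 normalised CPM, against 47.2 to 94.4 in mononucleated libraries of that age. Their 8 endothelial markers summed to 51.2 to 85.6, against 13.0 to 24.2. Leukocyte markers, 5 of them measured, summed to 4.46 to 10.3, against at most 0.803, with Laptm5, C1qb and C1qc at 0 in all 3 mononucleated libraries. The 5 measured erythroid markers summed to 101.3 to 176.8, against 38.5 to 67.3. The 5 atrial markers summed to 1466.0 in binucleated replicate 1, and to 533.8 to 778.5 in the remaining E18.5 libraries of both classes. Pericyte and smooth muscle markers, 6 of them measured, did not separate the E18.5 classes, with 1073.0 to 1583.9 against 1171.1 to 1316.4. Adult libraries of both classes held 61.1 to 86.1 for endothelial and 4.42 to 7.22 for leukocyte markers. Fewer cells of a type and less RNA per cell cannot be told apart in such bulk samples, and the part of these cells in the member values was not tested.

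Levels can be compared between genes only per length, here as normalised CPM per kilobase of exon. The length joins all annotated exons of a gene, so it can exceed that of the transcripts in these cells. The order of genes and the size of the ratios below carry this limit, which the SDs do not include. At E18.5, mononucleated cells held 826 ± 93 for Atp2a2, 812 ± 61 for Pln and 598 ± 25 for Casq2 (mean ± SD, n = 3), and the ranges of the first pair overlapped. The other 7 lay far below: Jph2 50.6 ± 7.4, Trdn 33.6 ± 2.8, Asph 27.1 ± 0.99, Hrc 22.9 ± 0.83, Slc8a1 17.0 ± 1.4, Ryr2 13.6 ± 0.92 and Cacna1c 3.31 ± 0.44, with no overlap between neighbours. The same 3 genes led in adult mononucleated cells, with 2247 ± 211 for Atp2a2, 1829 ± 153 for Pln and 777 ± 4.2 for Casq2. Hrc moved from rank 7 to rank 4 with 212 ± 13 per kilobase, and Slc8a1 came below Ryr2, with 7.02 ± 1.4 against 29.9 ± 6. In adult mononucleated cells the ranges of Trdn and Jph2 overlapped, as did those of Slc8a1 and Cacna1c (5.47 ± 1.8). Together the 10 genes took 1.14% to 1.27% of all recovered counts at E18.5, 1.64% to 1.7% at P7 and 2.01% to 2.2% in adult mononucleated libraries. In binucleated libraries their share was 0.814% to 1.19%, 1.77% to 1.88% and 1.72% to 2.14% at these ages. Atp2a2 alone made up 0.53% to 0.629% of counts at E18.5 and 1.08% to 1.31% in the adult mononucleated libraries.

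**Figure D1:**
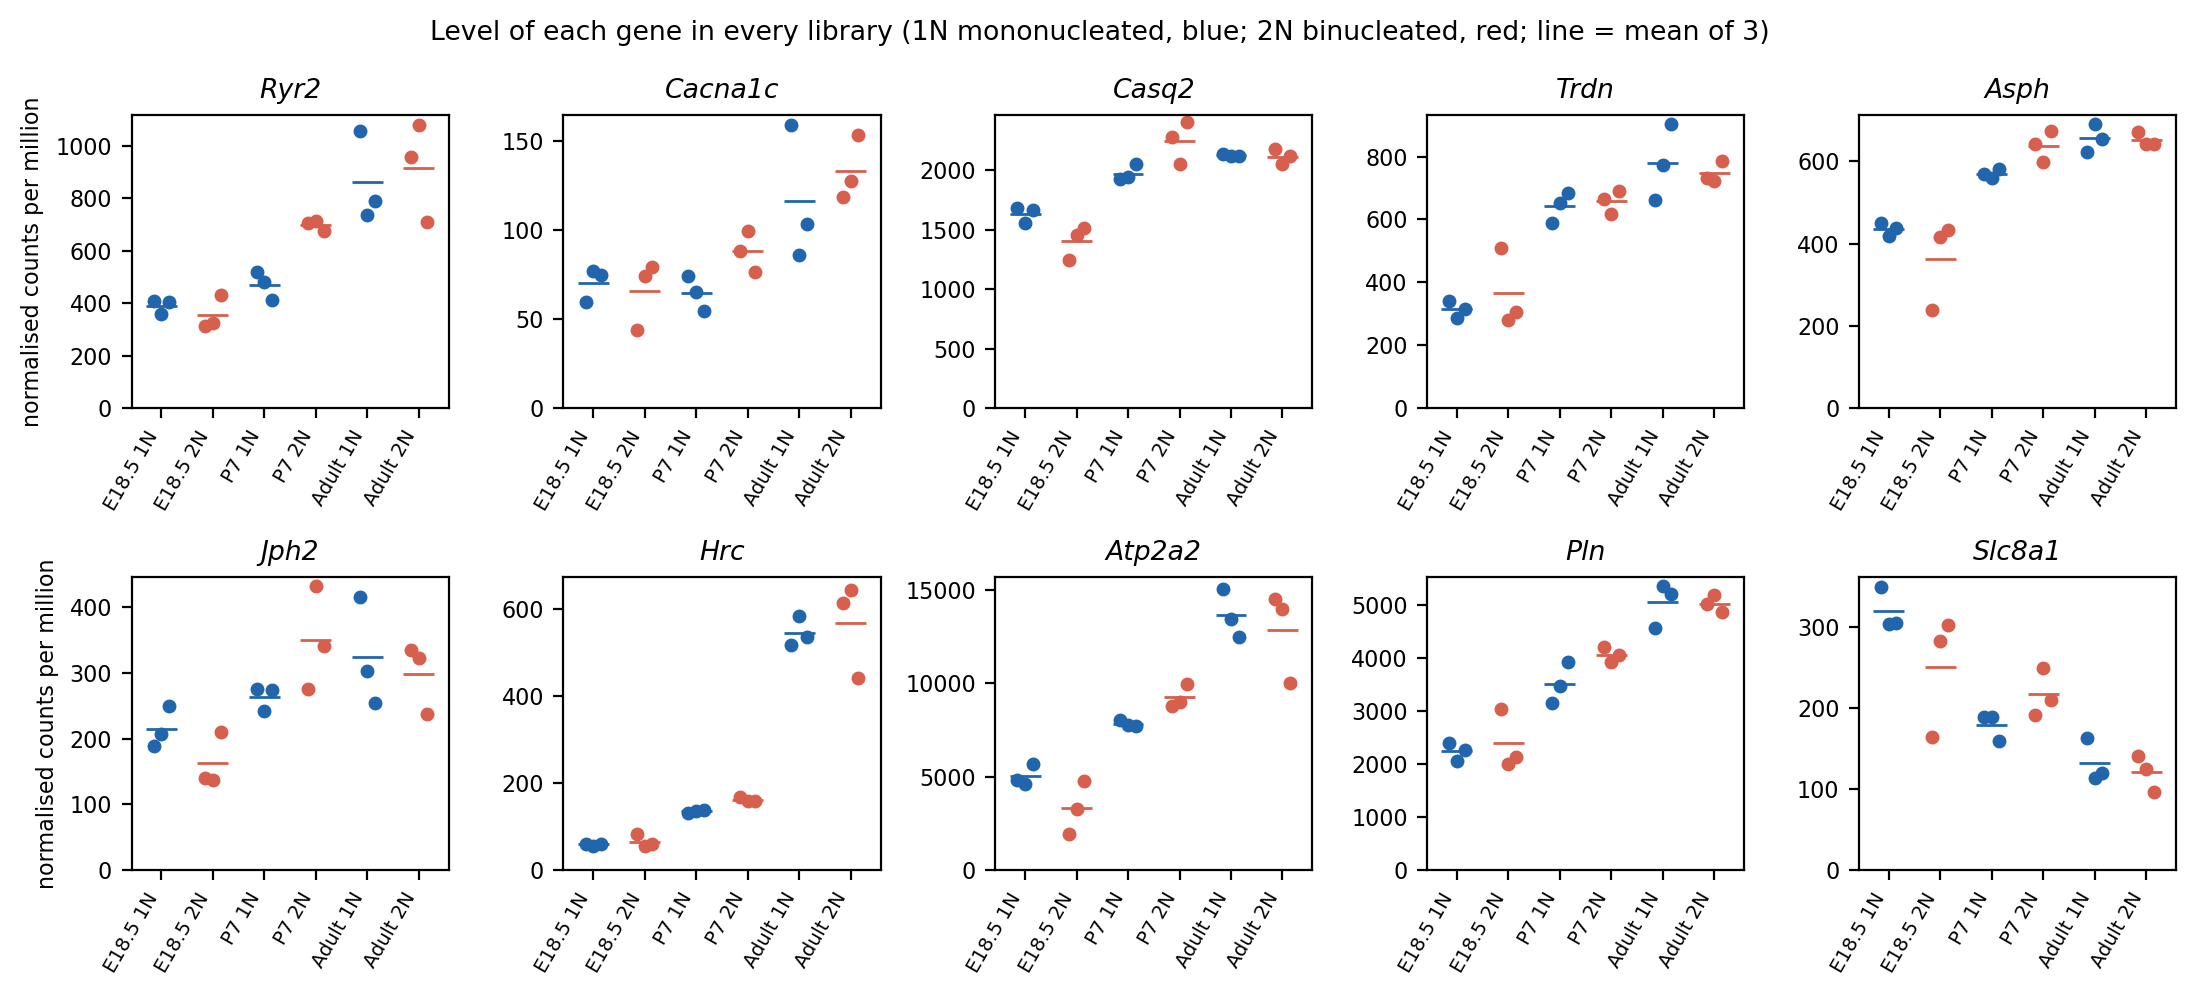
Normalised CPM (vertical axis, from 0) of each of the 10 genes in every library, by age and nuclear class; points are libraries, blue mononucleated and red binucleated, and lines are means of 3. Hrc in adult cells (441.4 to 644) sits far above P7 (130.6 to 167.3), Slc8a1 falls with age, and the 2 classes lie close together in the adult.

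From E18.5 to the adult, 9 of the 10 genes rose and Slc8a1 fell in both nuclear classes, although Casq2 turned to a lower adult value under quantile normalisation. Changes are differences of group means on the deposited log2 scale, with the SE of the limma model, and a gene is called where its limma p-value, adjusted over all 12048 genes, is under 0.05. With this rule 53.8% of all genes changed between these ages in mononucleated cells (26.2% up, 27.7% down) and 57.7% in binucleated cells (28.3% up, 29.4% down). The median member difference was 0.9 in mononucleated and 1.07 in binucleated cells, beside −0.01 and −0.02 for all genes. The 10 cardiomyocyte markers were also all above 0 in both classes, with medians of 0.45 and 0.62, and 5 and 7 were called higher. The part of that shift in the member values was not tested. Scaling by total counts moved the median of all genes to −0.4 and −0.43, and the calls of Cacna1c, Jph2, Asph and Casq2 in mononucleated cells and of Casq2 and Jph2 in binucleated cells were then lost (limma adjusted p from 0.0659 to 0.929). Of all called genes, 48.6% in mononucleated and 49.1% in binucleated cells were higher in the adult, and 27.6% and 28.5% under that scaling. Under quantile normalisation, Casq2 aside, the calls of Jph2 in mononucleated cells and of Asph in both classes were lost (limma adjusted p from 0.157 to 0.852).

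More members passed the first step in binucleated and the second in mononucleated cells, but no difference between the classes passed its own test. From E18.5 to P7, 3 members rose and 1 fell in mononucleated cells, where 10.7% of all genes were called up and 7.84% down. In binucleated cells 8 rose, where 36% of all genes were called (18.2% up, 17.7% down). From P7 to the adult, 5 members rose in mononucleated cells (41.4% of all genes called, 19.1% up, 22.3% down), while 1 rose and 1 fell in binucleated cells (37% called, 17.3% up and 19.7% down). Whether a step differed between classes was tested as the interaction of age and class, and 0 of 10 members passed for either step (2.33% and 0.208% of all genes did). At an unadjusted p under 0.05, 5 members passed the first interaction and 0 the second, beside 14.7% and 4.71% of all genes. After quantile normalisation 2 members rose and 2 fell from P7 to the adult in mononucleated cells (19.3% of all genes up, 19.4% down). Ryr2 was 0.36 (limma adjusted p = 0.146), and Casq2 (−0.48, 0.0136) and Slc8a1 (−0.65, 0.0361) passed as lower. Atp2a2 was 0.0 under that setting in every comparison among the P7 and adult groups, so the setting cannot show a change of it there. On the deposited scaling its mononucleated step was 0.80 ± 0.24 (limma adjusted p = 0.0128). Without binucleated replicate 1 at E18.5, the library that stood apart, the 4 step counts were 6 up and 1 down, 8 up and 1 down, 7 up and 1 down, and 4 up and 1 down, in the order given. The share of all genes called in that fit was also higher, 32.4%, 41.8%, 53.8% and 50.3%. That library bears on contrasts it has no part in through the shared estimate of spread. Markers of other cells moved over the same steps. In binucleated cells all 7 measured fibroblast, 8 endothelial and 5 leukocyte markers fell from E18.5 to P7, and from P7 to the adult 7 endothelial and 3 leukocyte markers rose. In mononucleated cells 2 fibroblast markers fell over the first step, and 6 endothelial and 5 leukocyte markers rose over the second. The part of these cells in the member changes was not tested.

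**Figure D2:**
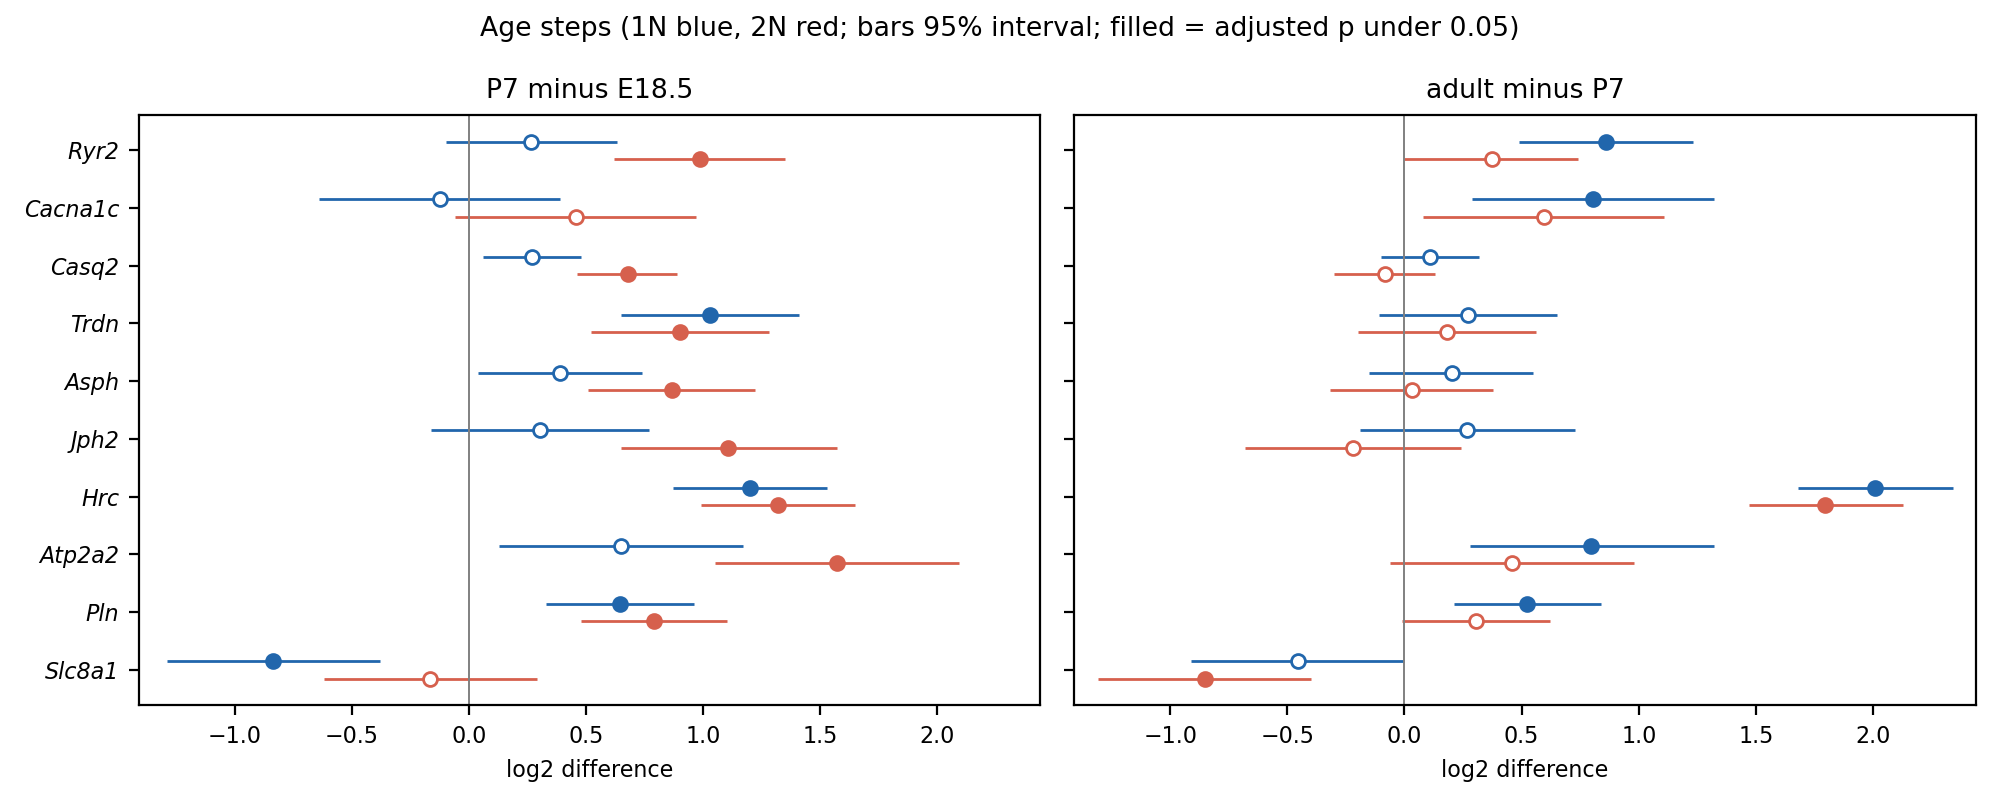
Log2 difference of each gene from E18.5 to P7 (left) and from P7 to the adult (right), with its 95% interval; blue is mononucleated, red binucleated, and filled points have a limma adjusted p under 0.05. Hrc is filled in all 4 places, while Jph2, Asph and Casq2 are filled only for the first step in binucleated cells, and no interaction of step and class passed.

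Cacna1c (ENSMUSG00000051331) codes for the pore of the cardiac L-type calcium channel, the trigger of release. Its level in mononucleated cells was 59.6, 76.7 and 74.4 at E18.5, 74.1, 65.3 and 54.3 at P7 and 159, 85.8 and 103 in the adult. In binucleated cells it was 44.0, 74.1 and 79.2 at E18.5, 88.3, 99.1 and 76.3 at P7 and 118, 127 and 153 in the adult. The adult libraries were the highest in both classes, and the spread among adult mononucleated libraries was wide. The adult exceeded E18.5 by 0.68 ± 0.23 (limma adjusted p = 0.0219) in mononucleated and by 1.05 ± 0.23 (limma adjusted p = 0.00113) in binucleated cells. The mononucleated call depended on single libraries: the limma adjusted p was 0.0891 without E18.5 mononucleated replicate 1 and 0.136 without adult mononucleated replicate 1. From P7 to the adult the mononucleated difference was 0.81 ± 0.23 (limma adjusted p = 0.0111), and it was lost without P7 replicate 3 (limma adjusted p = 0.0547) or adult replicate 1 (0.0733).

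Ryr2 (ENSMUSG00000021313) codes for the cardiac ryanodine receptor, the channel through which the store releases calcium. Mononucleated libraries held 409, 360.1 and 403 at E18.5, 519, 480.1 and 412 at P7 and 1058, 737 and 789 in the adult. Binucleated libraries held 312, 325 and 432 at E18.5, 705, 715 and 674 at P7 and 959, 1080.5 and 711 in the adult. All P7 binucleated values lay above all P7 mononucleated ones, while the classes overlapped at E18.5 and in the adult. Adult cells exceeded E18.5 cells by 1.12 ± 0.17 (limma adjusted p = 3.17e-05) in mononucleated and 1.36 ± 0.17 (limma adjusted p = 3.69e-06) in binucleated cells. The step from E18.5 to P7 was 0.26 ± 0.17 (limma adjusted p = 0.318) in mononucleated cells and 0.98 ± 0.17 (limma adjusted p = 0.000312) in binucleated cells. The step from P7 to the adult was 0.86 ± 0.17 (limma adjusted p = 0.000637) and 0.37 ± 0.17 (limma adjusted p = 0.0977) in the same order.

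Casq2 (ENSMUSG00000027861) codes for cardiac calsequestrin, the main calcium-binding protein inside the store, and had the narrowest range of all members as a fold between its lowest and highest library. Mononucleated libraries held 1679, 1557 and 1668 at E18.5, 1923, 1939.8 and 2053 at P7 and 2139, 2116 and 2124 in the adult. Binucleated libraries held 1249, 1451 and 1515 at E18.5, 2279.8, 2052 and 2409 at P7 and 2177, 2049 and 2117 in the adult. P7 was above E18.5 in every library of both classes. Adult mononucleated libraries lay just above those of P7, and adult binucleated ones overlapped them. The adult differed from E18.5 by 0.38 ± 0.10 (limma adjusted p = 0.00381) in mononucleated and 0.59 ± 0.10 (limma adjusted p = 7.45e-05) in binucleated cells. This direction was not stable to scaling: in mononucleated cells it was −0.45 after quantile normalisation (limma adjusted p = 0.0157) and −0.01 with total counts (0.929), and in binucleated cells −0.23 (0.187) and 0.18 (0.133). The step from E18.5 to P7 in binucleated cells was 0.68 ± 0.10 (limma adjusted p = 6.75e-05), and after quantile normalisation 0.23 (limma adjusted p = 0.224).

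Trdn (ENSMUSG00000019787) codes for triadin and Asph (ENSMUSG00000028207), among other products, for junctin; both anchor calsequestrin to the ryanodine receptor. The Asph locus also gives an aspartyl hydroxylase, and counts per gene do not separate the products. Trdn stood at 341, 288 and 316 in E18.5, 589, 653 and 684 in P7 and 661, 772 and 902 in adult mononucleated libraries. In binucleated libraries Trdn stood at 509, 279 and 307 at E18.5, 667, 618 and 691 at P7 and 732, 723.5 and 785 in the adult. P7 lay above E18.5 in both classes without overlap, and E18.5 binucleated replicate 1 was the highest fetal library. The step from E18.5 to P7 was 1.03 ± 0.17 (limma adjusted p = 0.000528) in mononucleated and 0.90 ± 0.17 (limma adjusted p = 0.000854) in binucleated cells. The later step was 0.27 ± 0.17 (limma adjusted p = 0.24) and 0.18 ± 0.17 (limma adjusted p = 0.451), in that order.

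Asph stood at 451, 419 and 438 in E18.5, 569.7, 559 and 583 in P7 and 622, 691 and 656 in adult mononucleated libraries. In binucleated libraries Asph stood at 238, 415 and 433 at E18.5, 642, 598 and 674 at P7 and 671, 641.5 and 643 in the adult. E18.5 binucleated replicate 1 was the lowest of the 18, and no E18.5 value reached the P7 range. The adult exceeded E18.5 by 0.59 ± 0.16 (limma adjusted p = 0.00561) in mononucleated and 0.90 ± 0.16 (limma adjusted p = 0.000167) in binucleated cells. After quantile normalisation these differences were 0.05 (limma adjusted p = 0.852) and 0.36 (0.157).

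Jph2 (ENSMUSG00000017817) codes for junctophilin-2, which holds the store membrane close to the surface membrane. Mononucleated libraries held 189, 207 and 250.2 at E18.5, 276, 242.5 and 274 at P7 and 416, 303 and 255 in the adult. Binucleated libraries held 140.2, 138 and 210.0 at E18.5, 276, 432 and 341 at P7 and 334, 323 and 238 in the adult. The highest single value belonged to a P7 binucleated library, and adult values reached down into the P7 range. The first step was 0.30 ± 0.21 (limma adjusted p = 0.369) in mononucleated and 1.11 ± 0.21 (limma adjusted p = 0.000773) in binucleated cells. Over both steps it was 0.57 ± 0.21 (limma adjusted p = 0.0317) and 0.89 ± 0.21 (limma adjusted p = 0.0019). In mononucleated cells that call was lost on leaving out E18.5 replicate 1 or 2 or adult replicate 1 or 2 (limma adjusted p = 0.112, 0.0799, 0.168 and 0.0524). After quantile normalisation the difference over both steps was 0.22 (limma adjusted p = 0.419) in mononucleated and 0.53 (0.0454) in binucleated cells.

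Hrc (ENSMUSG00000038239) codes for the histidine-rich calcium-binding protein of the store lumen, which binds triadin and SERCA2. Mononucleated libraries held 59.9, 56.4 and 60.2 at E18.5, 131, 136 and 138 at P7 and 516, 583 and 534.5 in the adult. Binucleated libraries held 83.3, 54.7 and 58.8 at E18.5, 167, 157.5 and 158 at P7 and 613, 644 and 441 in the adult. The 3 ages did not overlap in either class. The rise to P7 was 1.20 ± 0.15 (limma adjusted p = 2.98e-05) in mononucleated and 1.32 ± 0.15 (limma adjusted p = 6.89e-06) in binucleated cells. The rise from P7 to the adult was 2.01 ± 0.15 (limma adjusted p = 3.15e-08) and 1.79 ± 0.15 (limma adjusted p = 1.36e-07). Over both steps Hrc was 9.24-fold higher in mononucleated and 8.66-fold higher in binucleated cells (3.21 ± 0.15, limma adjusted p = 5.9e-11, and 3.12 ± 0.15, limma adjusted p = 5.83e-11). It was the member with the most change, and it rose at both steps in both classes under every alternative run.

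Atp2a2 (ENSMUSG00000029467) codes for SERCA2, the pump that refills the store, with its isoforms counted together. Mononucleated libraries held 4807, 4599 and 5663 at E18.5, 8029, 7756 and 7724.5 at P7 and 15040.3, 13455 and 12494.5 in the adult. Binucleated libraries held 1909.5, 3268 and 4781 at E18.5, 8753.5, 8994 and 9961 at P7 and 14482.5, 13992 and 10013 in the adult. The ages did not overlap, and on the log2 scale the E18.5 binucleated libraries were spread most. The adult was 2.72-fold above E18.5 in mononucleated and 4.08-fold above it in binucleated cells (1.45 ± 0.24, limma adjusted p = 7.97e-05, and 2.03 ± 0.24, limma adjusted p = 1.87e-06). The binucleated difference was 1.68 without E18.5 binucleated replicate 1 (limma adjusted p = 2.59e-07). From E18.5 to P7 the step was 0.65 ± 0.24 (limma adjusted p = 0.0705) in mononucleated and 1.57 ± 0.24 (limma adjusted p = 0.000103) in binucleated cells. The mononucleated step passed without E18.5 binucleated replicate 1 (limma adjusted p = 0.00335) or replicate 3 (0.0214). From P7 to the adult the step was 0.80 ± 0.24 (limma adjusted p = 0.0128) in mononucleated and 0.46 ± 0.24 (limma adjusted p = 0.148) in binucleated cells. With total counts the later mononucleated step was 0.49 (limma adjusted p = 0.122).

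Pln (ENSMUSG00000038583) codes for phospholamban, which inhibits SERCA2 until it is phosphorylated. Mononucleated libraries held 2397, 2064 and 2261 at E18.5, 3153, 3466 and 3918 at P7 and 4566.5, 5363 and 5209.7 in the adult. Binucleated libraries held 3041.5, 2003.5 and 2129 at E18.5, 4212, 3916 and 4048 at P7 and 5011, 5181 and 4856 in the adult. The ages did not overlap in either class, and E18.5 binucleated replicate 1 was the highest fetal library. From E18.5 to the adult Pln rose by 1.17 ± 0.14 (limma adjusted p = 3.45e-06) in mononucleated and 1.09 ± 0.14 (limma adjusted p = 6.2e-06) in binucleated cells. The rise to P7 was 0.65 ± 0.14 (limma adjusted p = 0.00423) and 0.79 ± 0.14 (limma adjusted p = 0.000492). The later step in mononucleated cells, 0.53 ± 0.14 (limma adjusted p = 0.00718), was −0.02 after quantile normalisation (limma adjusted p = 0.881) and 0.22 with total counts (0.142).

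Slc8a1 (ENSMUSG00000054640) codes for the sodium-calcium exchanger NCX1, which moves calcium out of the cell, and it was the one of the 10 genes that fell from E18.5 to the adult. Mononucleated libraries held 349, 304 and 305 at E18.5, 189, 188 and 159 at P7 and 163, 113 and 119.6 in the adult. Binucleated libraries held 165, 283 and 302 at E18.5, 191, 249.9 and 209 at P7 and 140.4, 125 and 96.5 in the adult. In mononucleated cells E18.5 lay above both later ages, and adult replicate 1 fell within the P7 range. In binucleated cells the adult lay below P7, while E18.5 replicate 1 was below every P7 library. The adult was 2.45-fold below E18.5 in mononucleated and 2.03-fold below it in binucleated cells (−1.29 ± 0.21, limma adjusted p = 6.78e-05, and −1.02 ± 0.21, limma adjusted p = 0.000555). Mononucleated cells passed the first step, −0.84 ± 0.21 (limma adjusted p = 0.00954), and binucleated cells the second, −0.85 ± 0.21 (limma adjusted p = 0.004). The remaining steps were −0.45 ± 0.21 (limma adjusted p = 0.0951) in mononucleated and −0.17 ± 0.21 (limma adjusted p = 0.567) in binucleated cells. Without E18.5 binucleated replicate 1 both of these passed (−0.45, limma adjusted p = 0.0178, and −0.44, 0.0448).

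The balance between exchanger and pump transcripts was followed as a ratio within each library, per kilobase. The Slc8a1 to Atp2a2 ratio was 0.0207 ± 0.0031 at E18.5, 0.00738 ± 0.00063 at P7 and 0.00311 ± 0.00039 in adult mononucleated cells (mean ± SD, n = 3). In binucleated cells it was 0.0254 ± 0.0044, 0.00761 ± 0.0012 and 0.00305 ± 0.00014. The ages did not overlap. It fell 3.05-fold from E18.5 to P7, 2.43-fold from P7 to the adult and 7.42-fold in all, each with p = 0.005 in a two-sided exact permutation test of age labels within class (n = 6 per age; adjusted p = 0.01 over 6 comparisons). That p is the smallest the 400 arrangements allow. The Pln to Atp2a2 ratio, inhibitor to pump, was 0.99 ± 0.11, 0.99 ± 0.13 and 0.822 ± 0.13 in mononucleated cells at the 3 ages. In binucleated cells it was 1.95 ± 1.4, 0.972 ± 0.083 and 0.883 ± 0.16. The E18.5 binucleated libraries ranged from 0.981 to 3.51, and the highest was replicate 1. From E18.5 to the adult the log2 ratio differed by −0.61 (exact permutation p = 0.035, adjusted p = 0.0525), from E18.5 to P7 by −0.39 (p = 0.18) and from P7 to the adult by −0.21 (p = 0.105), none past the threshold after adjustment. A transcript ratio is not a ratio of proteins.

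**Figure D3:**
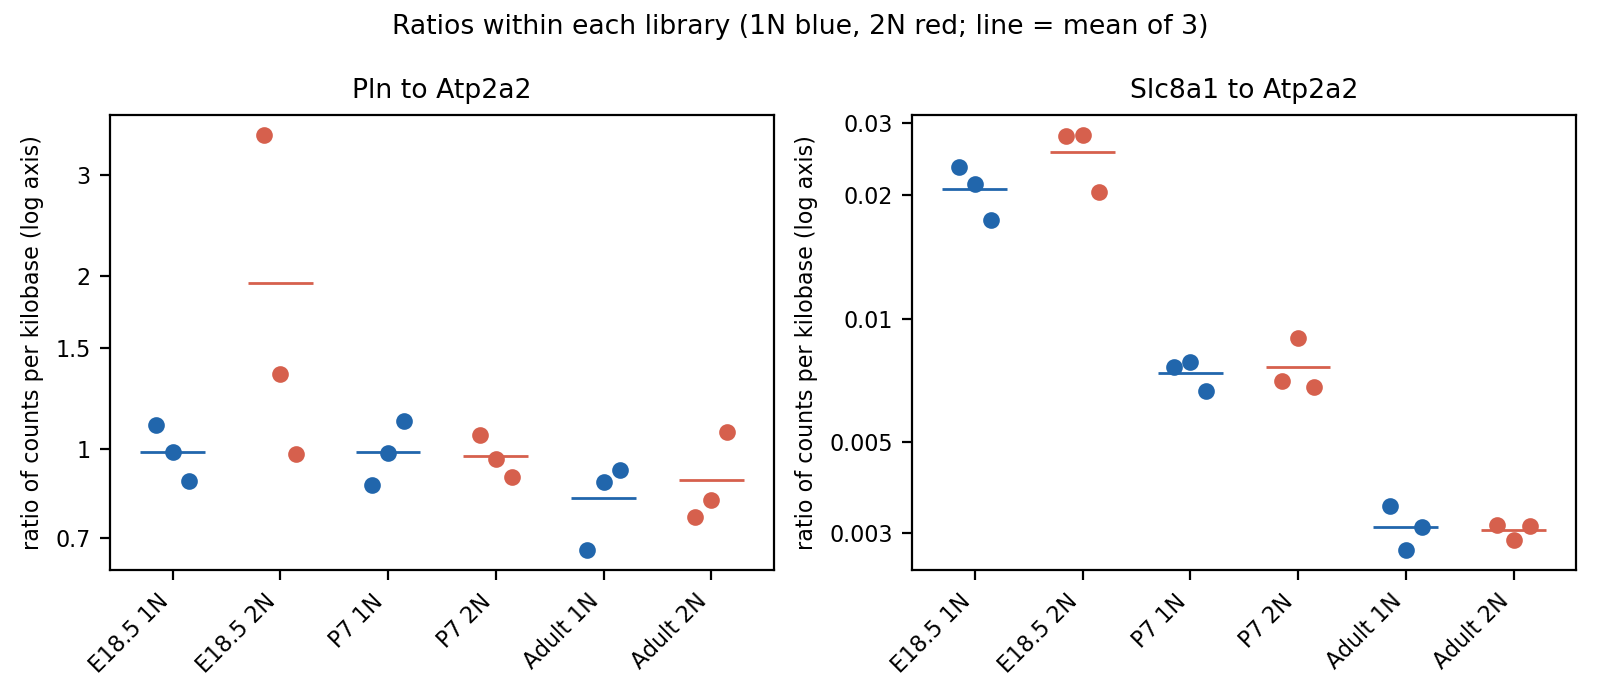
Ratio of Pln to Atp2a2 (left) and of Slc8a1 to Atp2a2 (right), counts per kilobase in each library, on log axes; blue mononucleated, red binucleated, lines are means of 3. The exchanger-to-pump ratio falls at each age without overlap (0.0174 to 0.028 at E18.5, 0.00273 to 0.0035 in adult mononucleated cells), while the phospholamban-to-pump ratio overlaps between ages.

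Between nuclear classes of 1 age, 0 of the 10 genes passed the limma test at E18.5, at P7 or in the adult. Over all genes 0.805%, 2.12% and 0.0913% were called at these ages. At an unadjusted p under 0.05, 2 members passed at E18.5 (Atp2a2 and Casq2, both lower in binucleated cells), 1 at P7 (Ryr2, higher) and 0 in the adult, where 13.9%, 10% and 2.5% of all genes passed, so these counts lie near the background. In the fit with voom weights on the recovered counts 0 passed at each age, beside 1.69%, 3.07% and 0.0% of all genes. With no gene called in the adult, that fit says nothing of these members there.

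At E18.5, 7 of 10 genes had a lower mean in binucleated than in mononucleated cells, with a median difference of −0.18 (all genes −0.01, 49.4% of them above 0). The largest was that of Atp2a2, −0.69 ± 0.24 (limma adjusted p = 0.236), 95% interval −1.21 to −0.17. Without binucleated replicate 1 it was −0.34 (limma adjusted p = 0.521), and without binucleated replicate 3 it was −1.0 (0.0244). Casq2 (−0.22 ± 0.10, limma adjusted p = 0.342) and Slc8a1 (−0.40 ± 0.21, limma adjusted p = 0.39) were the 2 members whose libraries did not overlap, both lower in binucleated cells, as for 7.1% of all genes. Without binucleated replicate 1 their differences were −0.14 and −0.12 (limma adjusted p = 0.576 and 0.889). The fibroblast, endothelial, leukocyte and erythroid marker sums given above were higher in these same binucleated libraries, and their part in the member differences was not tested.

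At P7 all 10 genes had a higher mean in binucleated cells, with a median difference of 0.24, beside 0.02 for all genes, 53.7% of which were above 0. This direction depended on scaling: 5 of 10 were above 0 after quantile normalisation, where Trdn (−0.14), Casq2 (−0.07), Pln (−0.01), Asph (−0.01) and Atp2a2 (−0.0) were not. That setting put Atp2a2 at 0.0 in every comparison among the P7 and adult groups, so its value there cannot show a class difference. With total counts 9 of 10 were above 0, and Trdn was −0.07. On the deposited scaling the 10 cardiomyocyte markers were higher too: 10 of 10 were above 0, with a median of 0.24 and 0 called. Their summed level was 53594 to 60540.3 in binucleated against 45327 to 47931 in mononucleated libraries. The part of that shift in the member values was not tested. Ryr2 had the largest difference, 0.58 ± 0.17 (limma adjusted p = 0.105), 95% interval 0.21 to 0.94. It passed with P7 and adult libraries paired by replicate number (limma adjusted p = 0.0283), in the P7 libraries alone (0.0109) and without E18.5 binucleated replicate 1 (0.0446). It did not pass with all pairs as a block (0.0922), after quantile normalisation (0.40, limma adjusted p = 0.498) or with total counts (0.47, 0.247). For 6 members (Ryr2, Atp2a2, Slc8a1, Cacna1c, Asph and Hrc) every binucleated library lay above every mononucleated one, as for 9.84% of all genes. Cacna1c differed by 0.45 ± 0.23 (limma adjusted p = 0.597), Jph2 by 0.38 ± 0.21 (limma adjusted p = 0.638) and Hrc by 0.25 ± 0.15 (limma adjusted p = 0.691). Trdn had the smallest difference, 0.04 ± 0.17 (limma adjusted p = 0.995), 95% interval −0.34 to 0.42.

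In the adult the classes overlapped for all 10 genes (2.51% of all genes were higher and 3.74% lower without overlap), and the median difference was −0.01. Differences ran from −0.13 ± 0.21 (limma adjusted p = 1) for Slc8a1 to 0.24 ± 0.23 (limma adjusted p = 1) for Cacna1c. The 95% intervals were narrowest for Casq2 (−0.22 to 0.21) and Pln (−0.32 to 0.3) and widest for Atp2a2 (−0.62 to 0.41) and Cacna1c (−0.28 to 0.75). A p that misses the threshold does not show that the classes were alike, and these intervals give the differences the data allow. They use the 12 residual degrees of freedom, fewer than the moderated test, and so are slightly wider than that test implies.

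**Figure D4:**
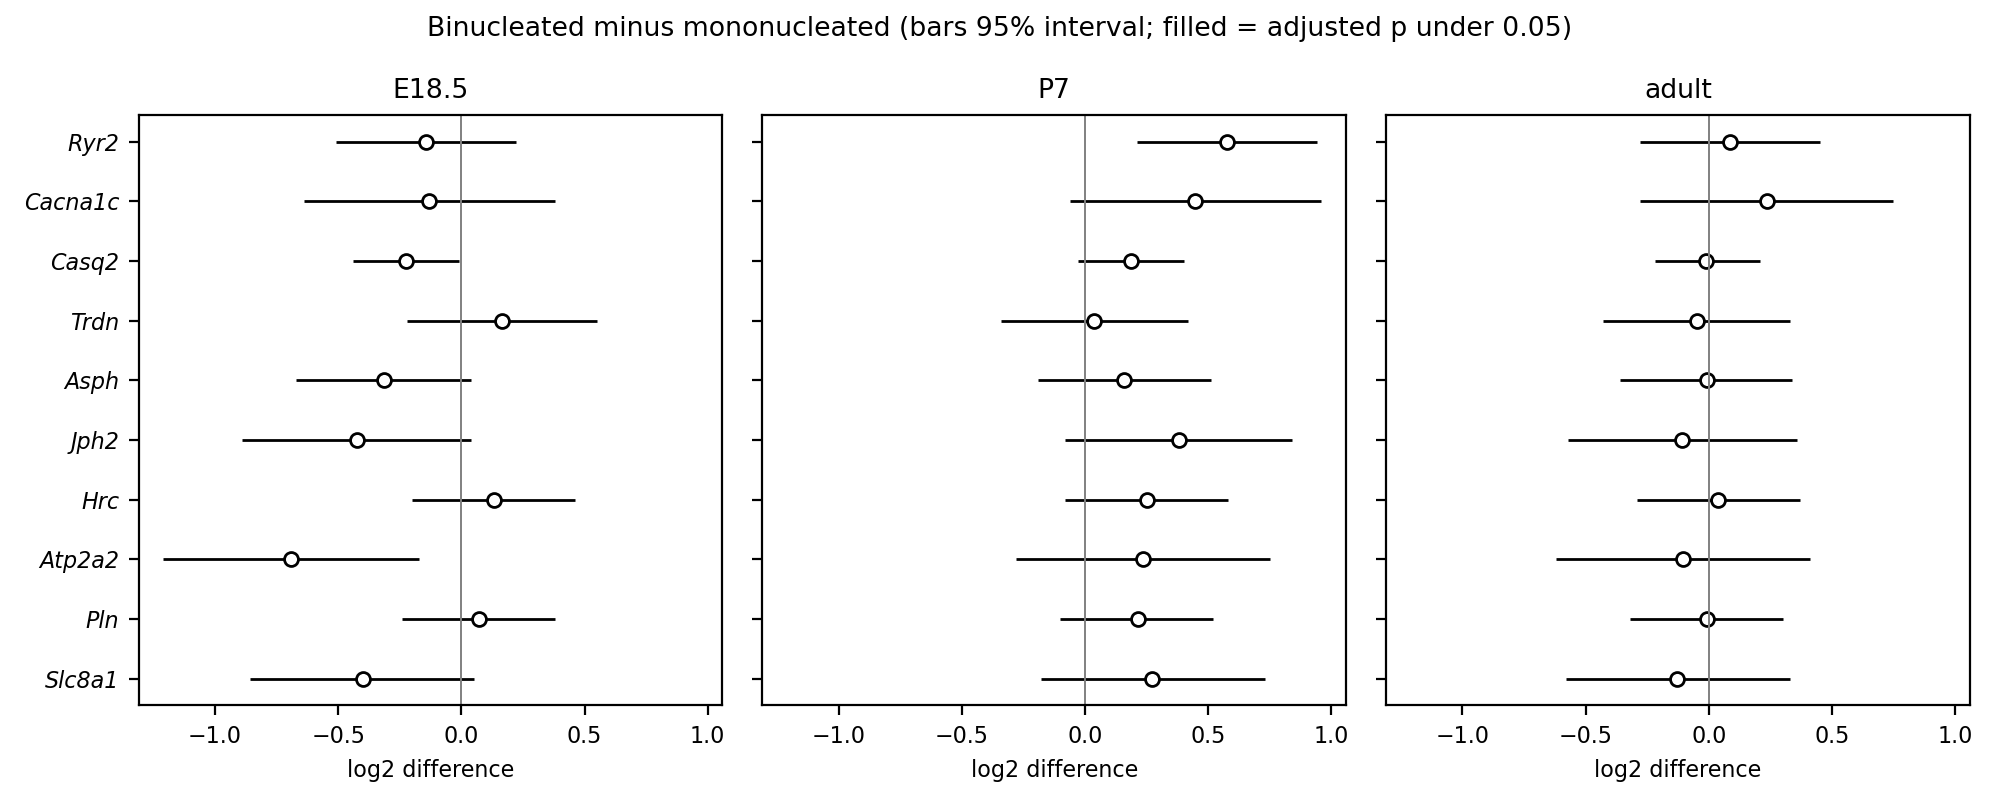
Binucleated minus mononucleated log2 difference of each gene with its 95% interval, with 1 panel for each age; no point is filled, since no limma adjusted p was under 0.05. At P7 all 10 points lie above 0 on the deposited scaling, from 0.04 for Trdn to 0.58 for Ryr2, and 5 of 10 do after quantile normalisation.

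The other genes of calcium handling were taken from a list of 79 by role, 66 of which were measured. From E18.5 to the adult 33 rose and 14 fell in mononucleated cells, and 35 rose and 20 fell in binucleated cells, with median differences of 0.42 and 0.41. Over this span the counts of this list and of its roles below read against the shares of all genes called. These were 26.2% up and 27.7% down in mononucleated and 28.3% up and 29.4% down in binucleated cells. From E18.5 to P7, 15 rose and 7 fell in mononucleated cells (10.7% of all genes up, 7.84% down). In binucleated cells 26 rose and 15 fell over that step (18.2% up, 17.7% down). From P7 to the adult 25 rose and 11 fell in mononucleated cells (19.1% up, 22.3% down), and 24 rose and 11 fell in binucleated cells (17.3% up, 19.7% down). Between classes 0 of 66 passed the limma test at any age and 0 passed either interaction. At an unadjusted p under 0.05, 11, 7 and 3 of them passed at the 3 ages, youngest first, and 14 and 1 the first and second interaction, beside 13.9%, 10%, 2.5%, 14.7% and 4.71% of all genes.

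Of 21 measured genes of the release unit and its regulators, 10 rose and 8 fell from E18.5 to the adult in each class. Tmem38a codes for the potassium channel TRIC-A, which balances charge across the store membrane during release. It rose from 324 ± 16 to 974 ± 22 normalised CPM in mononucleated cells (mean ± SD, n = 3; 1.59 ± 0.09, limma adjusted p = 3.57e-10), and its relative Tmem38b from 12.6 ± 1.2 to 52.6 ± 3.7 (2.06 ± 0.17, limma adjusted p = 3e-08). Srl, the gene of the store protein sarcalumenin, rose by 0.54 ± 0.17 (limma adjusted p = 0.0114) in mononucleated and 0.93 ± 0.17 (limma adjusted p = 0.000159) in binucleated cells. Fkbp1b codes for FKBP12.6, a small protein that binds the ryanodine receptor. It fell from 5.56 ± 0.93 at P7 to 0.244 ± 0.054 in adult mononucleated cells (−4.35 ± 0.49, limma adjusted p = 2.91e-06), and its adult values rest on 12 and 11 counts over the 3 libraries of each class. Casq1, the calsequestrin of skeletal muscle, fell from 181 ± 58 at E18.5 to 28.8 ± 5.7 in adult mononucleated cells and from 151 ± 23 to 10.3 ± 2.1 in binucleated cells (−2.61 ± 0.35, limma adjusted p = 9.73e-06, and −3.88 ± 0.35, limma adjusted p = 8.86e-08). Speg, a kinase of the junction, fell to P7 by −0.65 ± 0.15 (limma adjusted p = 0.00491) in mononucleated cells.

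Among 6 measured regulators of the pump, 2 rose and 1 fell in mononucleated and 3 rose and 2 fell in binucleated cells from E18.5 to the adult. Ppp1r1a codes for phosphatase inhibitor 1, which keeps phospholamban phosphorylated by holding back protein phosphatase 1. It fell from 48.1 ± 3.8 at E18.5 through 30.7 ± 0.97 at P7 to 2.88 ± 0.087 in adult mononucleated cells (−4.04 ± 0.25, limma adjusted p = 1.38e-09). Most of this fall came after P7, −3.40 ± 0.25 (limma adjusted p = 2.55e-08) in mononucleated and −2.84 ± 0.25 (limma adjusted p = 2.37e-07) in binucleated cells. Sln, the gene of the atrial pump inhibitor sarcolipin, averaged at most 2.56 normalised CPM in any group.

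Of 18 measured genes of calcium entry and exit at the surface, 7 rose and 3 fell in mononucleated and 7 rose and 7 fell in binucleated cells from E18.5 to the adult. Cacna2d1 and Cacnb2 code for auxiliary subunits of the L-type channel. They rose by 2.11 ± 0.19 (limma adjusted p = 8.24e-08) and 0.92 ± 0.20 (limma adjusted p = 0.00101) in mononucleated cells, and by 1.68 ± 0.19 (limma adjusted p = 1.02e-06) and 1.20 ± 0.20 (limma adjusted p = 8.05e-05) in binucleated cells. Cacna1g, the gene of a T-type calcium channel, had a peak at P7. In mononucleated cells it went from 15.4 ± 0.71 to 75.5 ± 7.2 and back to 22.5 ± 3.4, and in binucleated cells from 20.1 ± 4.3 to 52.3 ± 5.4 and 21.0 ± 3.7. Both steps passed in both classes (2.29 ± 0.18, limma adjusted p = 1.8e-07, and −1.75 ± 0.18, limma adjusted p = 9.43e-07 in mononucleated cells). Orai3, a subunit of store-operated channels, rose by 2.32 ± 0.17 (limma adjusted p = 1.1e-08) in mononucleated cells. Stim1, the calcium sensor of the store that opens Orai channels, fell to P7 and was higher again in the adult (−1.41 ± 0.27, limma adjusted p = 0.00132, and 1.18 ± 0.27, limma adjusted p = 0.00211 in mononucleated cells). The plasma membrane pump gene Atp2b1 differed by 0.26 ± 0.16 (limma adjusted p = 0.189) in mononucleated and 0.56 ± 0.16 (limma adjusted p = 0.00699) in binucleated cells.

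T-tubule and dyad genes had the highest median of the 6 roles, 2.39 in mononucleated and 2.68 in binucleated cells from E18.5 to the adult, and 4 of the 5 measured rose in each class, while 1 fell in binucleated cells. From P7 to the adult 4 rose and 1 fell in both classes. Tcap, telethonin, links Z-disc and T-tubule. It went from 247 ± 23 to 1528 ± 150.0 in mononucleated cells (2.63 ± 0.17, limma adjusted p = 2.28e-09). Mtm1, a phosphoinositide phosphatase needed for normal triads in muscle, went from 16.1 ± 2.2 to 84.4 ± 4.6 (2.40 ± 0.19, limma adjusted p = 2.61e-08). Cmya5, the gene of a large protein at the junction, went from 93.7 ± 2.8 to 892 ± 266 (3.21 ± 0.21, limma adjusted p = 2.69e-09). Of 8 luminal buffers and chaperones, 5 rose and 1 fell in mononucleated and 6 rose and 1 fell in binucleated cells. Hspa5, the calcium-binding chaperone BiP, rose after P7 (1.21 ± 0.14, limma adjusted p = 2.47e-06 in mononucleated cells), and Rcn1, reticulocalbin 1, fell before it (−0.87 ± 0.11, limma adjusted p = 2.52e-05). Of 8 genes of mitochondrial calcium uptake, 5 rose and 1 fell in each class, and Micu2, a gatekeeper of the uniporter, rose by 0.69 ± 0.10 (limma adjusted p = 1.93e-05) in mononucleated cells.

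**Figure D5:**
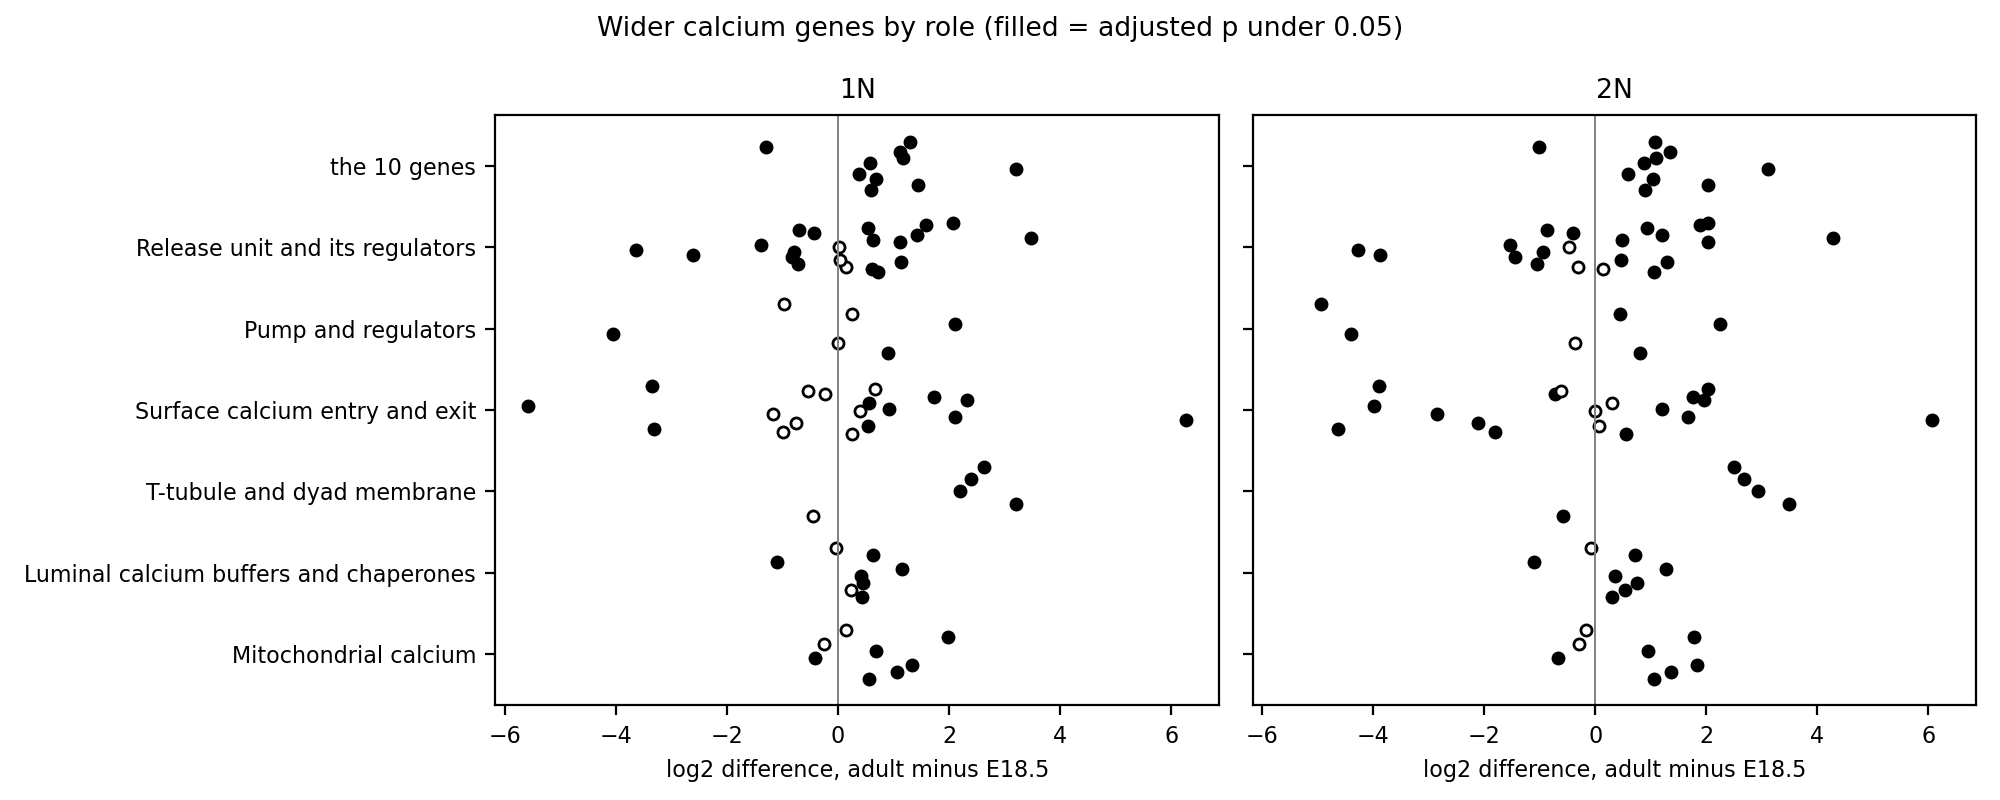
Log2 difference from E18.5 to the adult in mononucleated (left) and binucleated (right) cells for the 10 genes and the 66 other measured calcium genes, by role; each point is a gene, filled where the limma adjusted p is under 0.05. Of the 10 genes 9 lie right of 0, whereas the release-unit regulators split into 10 higher and 8 lower.

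Across the 18 libraries the members varied together to different degrees, described here by Pearson's r of the log2 values. The libraries share age, so r mostly follows the age groups. Pln and Trdn had r = 0.967, Casq2 and Asph 0.953, Atp2a2 and Asph 0.945, and Pln and Hrc 0.943. Slc8a1 ran against the others, from −0.326 with Jph2 to −0.88 with Pln. Outside the list, the genes most like the mean of the 10 were Tigar (r = 0.985), Acsl1 (0.977), Dysf (0.976), Fbxo40 (0.976) and Hadha (0.974). The gene most like Hrc was Nqo1 (0.994), the one most like Atp2a2 was Tmem65 (0.989), the one most like Pln was Yipf7 (0.994), and the one most like Slc8a1 was Nhsl1 (0.962), each over 18 libraries.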

How the data were processed

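Per the labels' protocols, cells were sorted into Trizol-LS and libraries were made with a stranded mRNA kit after SMARTer amplification. The submitters' processing notes list STAR, limma and mm9; the sources used here give no version, counter or annotation. Each library came as 1 deposited table of log2 values. Each value equals log2 of a whole count plus 0.5 times 1 factor per library (100% whole within 0.001), so counts were recovered, and the libraries' normalisation factors ran from 0.847 to 1.177. Amplified reads carry no molecular identifiers. Symbols and exon lengths came from GENCODE M21 (11927 of 12048 identifiers matched).

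The deposited values were fitted in limma 3.58.1 (R 4.3.3): 6 group means, 18 libraries, 12 residual degrees of freedom, moderated variances with a trend, two-sided tests, Benjamini-Hochberg over 12048 genes, threshold 0.05. The fit was tested on simulated counts with the same dispersion for all genes. They held no paired and no deviating library, so that test does not cover these features. Log2 differences of low-count genes are understated by the offset. The 10 genes and all lists were chosen with earlier results of these data known. Other calcium genes are named by smallest adjusted p (up to 4 per direction and contrast), beside Sln, Fkbp1b, Atp2b1, Cacnb2, Cacna2d1, Tmem38a and Srl, named in any case; Cacna1s and Ryr3 fall outside this rule. Same-numbered libraries of the 2 classes deviated together at P7 (r from 0.182 to 0.236), in the adult (0.261 to 0.327) and more weakly at E18.5 (0.054 to 0.158). Pairing at P7 and adult alone is an alternative chosen after seeing the data. The others were quantile normalisation, a count filter, an offset of 2, array weights, the libraries of a contrast alone, replicate blocks and leaving out each library; total-count scaling and voom were added later.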

Additional observations from a re-analysis of the deposited data

Results flagged for a closer look

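For 4 members all 3 same-numbered differences, binucleated minus mononucleated, were below 0 at E18.5 and all 3 were above 0 at P7. The share of all genes with this pattern was not counted, so these 4 cannot be set against a background. The change in the class difference between these ages was 0.92 for Atp2a2 (−0.69 at E18.5, 0.23 at P7; limma adjusted p of the interaction = 0.201), 0.41 for Casq2 (−0.22 and 0.19; limma adjusted p = 0.166), 0.67 for Slc8a1 (−0.4 and 0.27; limma adjusted p = 0.304) and 0.47 for Asph (−0.31 and 0.16; limma adjusted p = 0.353). None passed. Same-numbered libraries deviated together only weakly at E18.5 (r from 0.054 to 0.158). At E18.5 the differences of replicates 2 and 3 were −0.1 and −0.02 for Slc8a1 and −0.01 and −0.01 for Asph, while those of replicate 1 were −1.08 and −0.92. Without E18.5 binucleated replicate 1 the class difference at E18.5 was −0.34 for Atp2a2, −0.14 for Casq2, −0.12 for Slc8a1 and −0.04 for Asph. The interaction was then 0.33 for Casq2, 0.4 for Slc8a1 and 0.2 for Asph (limma adjusted p = 0.0776, 0.375 and 0.273). For Atp2a2 it was 0.57 (limma adjusted p = 0.172), and without binucleated replicate 3 it was 1.24 (0.026). The E18.5 binucleated libraries had higher fibroblast, endothelial, leukocyte and erythroid marker sums than the mononucleated ones. Of these libraries, replicate 1 had the lowest fibroblast sum (301.2, against 838.8 and 869.4 in replicates 2 and 3). Its endothelial (51.2 against 82.7 and 85.6) and leukocyte sums (4.46 against 10.2 and 10.3) were also the lowest. Its erythroid sum was the highest (176.8 against 101.6 and 101.3). The part of these cells in the member differences was not tested.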

How the results depend on the processing

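The fall of Slc8a1 and the rises of Hrc, Atp2a2, Pln, Ryr2 and Trdn from E18.5 to the adult kept direction and call in both classes under every alternative run. With array weights 5 members passed between classes at P7, 7 changed from E18.5 to P7 and 8 from P7 to the adult in mononucleated cells, 6 changed from P7 to the adult in binucleated cells, and 1 passed the first interaction. In that fit 11.6%, 43.0%, 61.5%, 53.8% and 9.95% of all genes were called, in the same order, so the counts rose along with those of all genes. Fitted to the libraries of a contrast alone, 1 passed between classes at P7, and 7 (E18.5 to P7, mononucleated) and 5 (P7 to adult, binucleated) changed, beside 5.05%, 32.2% and 51.1% of all genes. The replicate block for P7 and adult pairs gave 1 at P7 (Ryr2; 6.2% of all genes), and blocks on replicate number or on all pairs changed no other call. Total-count scaling, chosen after seeing the data, gave 3 calls from P7 to the adult (2 up, 1 down) and 6 from E18.5 to the adult (5 up, 1 down) in mononucleated cells, beside 44.8% and 58.7% of all genes. It moved the share of called genes that were higher from 57.6% to 47.1% (E18.5 to P7) and from 46.1% to 24.5% (P7 to adult) in mononucleated cells, and from 50.7% to 30.9% and 46.8% to 29.0% in binucleated cells.

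Leaving out 1 library at a time gave 0 to 1 members between classes at E18.5 and P7 and 0 in the adult, 4 to 7 and 8 to 9 from E18.5 to P7, 4 to 8 and 2 to 5 from P7 to the adult, 8 to 10 and 10 from E18.5 to the adult (mononucleated, then binucleated), and 0 to 1 for the first interaction. The upper counts came without E18.5 binucleated replicate 1 or, for the E18.5 classes and the interaction, replicate 3, except from E18.5 to the adult in mononucleated cells, where 8 came without replicate 1 of the E18.5 or adult mononucleated libraries. From P7 to the adult, 4 came without P7 mononucleated replicate 3. Over these fits 13.5% to 32.4% and 27.5% to 41.8% of all genes were called from E18.5 to P7 (mononucleated, then binucleated). From P7 to the adult this share was 34.8% to 53.8% and 30.7% to 50.3%, in the same order. From E18.5 to the adult it was 47.5% to 64.8% and 51.8% to 63.0%. Between classes it was 0.656% to 2.34% at E18.5, 1.07% to 4.76% at P7 and 0.0166% to 0.191% in the adult. For the first interaction it was 1.33% to 4.71%. The Pln to Atp2a2 ratio differed by −0.34 to −0.8 from E18.5 to the adult and by −0.14 to −0.29 from P7 to the adult. It passed from E18.5 to the adult without E18.5 mononucleated replicate 3 or adult mononucleated replicate 3 (−0.65, exact permutation, adjusted p = 0.0375) or E18.5 binucleated replicate 3 (−0.8, 0.015), and from P7 to the adult without adult binucleated replicate 3 (−0.29, 0.0375).

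Among differences called in either fit, directions reversed for Casq2 after quantile normalisation, from P7 to the adult (−0.48) and from E18.5 to the adult (−0.45) in mononucleated and (−0.23) in binucleated cells. Pln from P7 to the adult in mononucleated cells (−0.02) also reversed. With total-count scaling Casq2 from E18.5 to the adult reversed in mononucleated cells (−0.01). Among differences called in neither fit, 14 more of all 110 member differences changed sign after quantile normalisation, 6 of them from P7 to the adult (Jph2, Trdn and Asph in mononucleated, Pln, Trdn and Asph in binucleated cells) and 5 between classes at P7, and 7 did with total counts. The cause was not tested. A filter of at least 10 counts in 3 libraries removed no gene and says nothing about stability; edgeR and DESeq2 were not run, because the deposited unit is log2.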

Other observations

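Cacna1s and Ryr3 are named here after their values were seen. Cacna1s, the pore of the skeletal L-type channel, averaged 0.964 ± 0.86 normalised CPM at E18.5, 1.64 ± 0.2 at P7 and 27.8 ± 6.4 in adult mononucleated cells (SD, n = 3). The binucleated means were 1.57 ± 2.2, 2.29 ± 0.94 and 30.2 ± 6.4. Adult libraries held 342 to 640 counts of it, and at E18.5 each class had a library at 0, so the size of the fitted rise depends on the offset (limma adjusted p = 0.00184 in mononucleated and 0.00211 in binucleated cells). Ryr3, a ryanodine receptor of low level in heart, went from 0.363 ± 0.02 at E18.5 to 4.35 ± 1.1 in adult mononucleated cells (log2 difference 3.48, limma adjusted p = 0.00299). Summed atrial markers, all 5 measured, ranged from 533.8 to 1466.0 normalised CPM at E18.5, 46.7 to 158.1 at P7 and 2.13 to 45 in the adult. The 6 measured pericyte and smooth muscle markers summed to 1073 to 1583.9, 635.5 to 905.4 and 163 to 298.7, and the 5 measured erythroid markers to 38.5 to 176.8, 5.24 to 25.1 and 0.0591 to 11.2 at these ages. The part of these cells in the member changes was not tested.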
